A study of Mus musculus with 231 samples.

Results

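Both arms of miR-135a-1 and the 3p arms of the 5 miR-200 family members were followed in peripheral blood mononuclear cells (PBMC) of mice that carry the leukemia fusion gene Cbfb-MYH11 (CM) and of their controls (Ctrl). The 7 miRNAs are mmu-miR-135a-5p, mmu-miR-135a-1-3p, mmu-miR-200a-3p, mmu-miR-200b-3p, mmu-miR-200c-3p, mmu-miR-141-3p and mmu-miR-429-3p (written below without the species prefix, and for the miR-200 family without the arm), out of 1863 mature miRNAs in the deposited counts. They were found by name, and they had been chosen by their CPM in libraries of month 3, where CM mice had less of them. Month 3 is therefore given as a description, and nothing is read from the calls printed for it. The tests are those of the other months and of the validation mice.

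All mice were C57BL/6. CM mice carried the conditional knock-in with Mx1-Cre (Cbfb56M/+/Mx1-Cre), and the fusion was switched on at an age of 6 to 8 weeks by 7 intraperitoneal doses of poly(I:C) at 14 mg/kg, given every other day. Ctrl littermates received the same injections. The labels say that they lacked the transgene, whereas the methods of the study allow the knock-in allele without Cre, and the genotype codes of the labels (CHW in CM, HW, CW or WT in Ctrl) are not explained. Mx1-Cre answers to interferon, is not confined to blood cells, and poly(I:C) itself raises interferon, a treatment that both groups share. The training cohort held 7 CM mice (4 female, 3 male, 53 libraries) and 7 Ctrl mice (2 female, 5 male, 76 libraries). Blood was taken once before induction, called month 0, and then monthly up to month 10. For validation there were 60 libraries of 10 CM mice and 42 libraries of 6 Ctrl mice by the labels of the libraries, which were followed, whereas the text of the series counts 9 CM and 7 Ctrl mice, so the group of 1 mouse is in doubt.

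The miR-200 family is transcribed from a pair of clusters, one with miR-200b, miR-200a and miR-429 and one with miR-200c and miR-141. The family is best known for holding cells in an epithelial state by repressing the transcription factors Zeb1 and Zeb2, and it is abundant in epithelia and scarce in most blood cells. The 5p arm of miR-135a is made from a pair of genes on different chromosomes, and the 3p arm named miR-135a-1-3p comes from only one of them. A miRNA finds its targets mainly through the seed near its 5′ end, so members with the same seed share many predicted targets.

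The mature sequences are shown because they decide which members share targets and which could share reads. They were taken from RefSeq (mouse, GRCm38.p6), all 7 names matched, and the seed (bases 2 to 8) is in capitals.
miR-200b-3p: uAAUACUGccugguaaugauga
miR-200c-3p: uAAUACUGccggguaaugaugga
miR-429-3p: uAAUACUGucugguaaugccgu
miR-200a-3p: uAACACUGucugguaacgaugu
miR-141-3p: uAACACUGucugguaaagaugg
miR-135a-5p: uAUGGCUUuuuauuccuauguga
miR-135a-1-3p: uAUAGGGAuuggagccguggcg

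Seeds cut across the clusters. miR-200b, miR-200c and miR-429 share the seed AAUACUG, and miR-200a and miR-141 share AACACUG. With positions counted from 1 at the 5′ end, miR-200a and miR-200b differ inside the seed by C4U. The closest pairs in sequence lie on different chromosomes. miR-200b and miR-200c are identical at 20 of 22 compared bases and differ by U11G and A22G, and miR-200a and miR-141 also match at 20 of 22, with C17A and U22G. The counting could therefore split reads between these pairs, and their levels are uncertain to that extent. The arms of miR-135a have seeds of their own.

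In GRCm38.p6 the mature miR-200b lies at chr4:156055685-156055706, miR-200a at chr4:156054911-156054932 and miR-429 at chr4:156053916-156053937, all on the minus strand and inside the lncRNA gene Gm13648. Their hairpins are 695 and 908 bases apart. miR-200c lies at chr6:124718324-124718346 and miR-141 at chr6:124717917-124717938, on the minus strand, 336 bases apart as hairpins, and no other annotated gene overlaps them. miR-135a-5p is encoded at chr9:106154140-106154162 on the plus strand (Mir135a-1) and at chr10:92072141-92072163 on the minus strand (Mir135a-2). miR-135a-1-3p lies at chr9:106154179-106154200 in the same hairpin as the former. Mir135a-1 overlaps the lncRNA gene D030055H07Rik and the protein-coding gene Glyctk, and no other annotated gene overlaps Mir135a-2.

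Library totals of the training cohort ranged from 1792809 to 7958411 counts, with medians of 4357008 in CM and 4577924 in Ctrl. The blood label held by its markers, as miR-142a-3p (blood cells in general) and miR-150-5p (mature lymphocytes) never fell below 16680 and 23028 counts in a library. Erythroid markers (miR-451a and both arms of miR-144) were abundant too, with summed medians of 62372 CPM in CM and 60926 in Ctrl. Both arms of miR-142a summed to 65201 and 62944 CPM. Single libraries reached 8830 CPM of muscle markers (a CM library) and 4257 counts of the brain miRNA miR-124-3p. Titles carry a G number from G1 to G7 that the labels do not explain. At month 3, 1 of the 5 G numbers in use held both groups, and at month 4 none of 7 did, whereas 4 of 7, 3 of 6, 2 of 7, 4 of 6 and 1 of 7 were shared at months 0, 1, 2, 5 and 6. The serial numbers in the titles of CM mouse 3334 and Ctrl mouse 3335 change places after month 5, so the results below were also computed without both mice.

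Levels are given as CPM, counts scaled to a common library total, after the TMM correction for differences in composition. Over all training libraries the miR-200 family was well above the counting limit. miR-200c had the highest median, 514 CPM (range 181 to 2023), followed by miR-200b at 377 CPM (92.3 to 3751), miR-200a at 313 CPM (52.1 to 3219), miR-141 at 92.9 CPM (29.4 to 464) and miR-429 at 85.6 CPM (20.7 to 1073). The ranges of neighbours in this order overlap widely, and all 5 had at least 40 counts in every library. PBMC are a mixture, in which fewer cells of a type and less RNA per cell cannot be told apart.

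The miR-135a arms were scarce. miR-135a-5p had a median of 10.5 CPM (0 to 230) or 51 counts (0 to 1164), and 3 counts or fewer, the limit that a count of 0 allows, in 10 libraries (6 CM, 4 Ctrl). miR-135a-1-3p had a median of 2.13 CPM (0 to 21.3) or 10 counts (0 to 96), and 3 counts or fewer in 27 libraries (20 CM, 7 Ctrl). Medians over libraries of all months were 4.67 CPM in CM against 23.8 in Ctrl for miR-135a-5p, 1.04 against 3.22 for miR-135a-1-3p, 413 against 606 for miR-200c, 75.8 against 115.8 for miR-141, 325 against 416 for miR-200b, 303 against 321 for miR-200a and 82.2 against 86.8 for miR-429.

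At month 3, which chose the members, miR-141 separated the groups without overlap. CM libraries held 45.4 to 115.2 CPM of miR-141 (median 66.9) and Ctrl libraries 130.5 to 277 CPM (median 149.7), and 16 of all 455 miRNAs (3.52%) separated the groups in this way. miR-200c ran from 181 to 636 CPM (median 288) in CM and from 583 to 1218 CPM (median 811) in Ctrl, and miR-200b from 130 to 542 CPM (median 223) against 415 to 2266 CPM (median 538). For both, 6 of 7 CM libraries lay below every Ctrl library. The exception was mouse 3334 each time, the only CM library of G3 in that month.

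miR-135a-5p ranged from 0.567 to 20.3 CPM (median 4.78, 2 to 88 counts) in CM and from 5.98 to 94.97 CPM (median 40.6, 29 to 452 counts) in Ctrl. miR-135a-1-3p had 0 to 8 counts in CM against 10 to 27 in Ctrl, with 6 of 7 CM libraries below every Ctrl library on the CPM scale. miR-200a (median 318 against 335 CPM) and miR-429 (71.5 against 84.1 CPM) overlapped broadly, and their fitted differences rest on a few Ctrl libraries with high values. The fitted log2 changes in CM were -2.40 for miR-135a-5p, -1.61 for miR-200b, -1.28 for miR-200c, -1.18 for miR-429, -1.17 for miR-141 and -0.90 for miR-200a, and miR-135a-1-3p did not pass the filter on low counts. In that month 35 of 455 miRNAs, 7.69%, were called lower in CM (edgeR, adjusted p under 0.05), 4 members among them, and nothing is read from this count because it chose the members.

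With the G number as a covariate, no member was called at month 3, and 6 of all miRNAs tested were. The estimates became 0.21 ± 1.05 (SE) for miR-200b, 0.50 ± 1.14 for miR-200a, 0.89 ± 1.37 for miR-429, -0.33 ± 0.56 for miR-200c, -1.68 ± 1.33 for miR-135a-5p and -1.74 ± 0.59 for miR-141. These errors are wide because the comparison within a G number then rests on the single CM and the single Ctrl library of G3. In that pair miR-200b stood at 542 CPM in CM mouse 3334 and 545 in Ctrl mouse 3339, miR-200a at 452 and 369.8, and miR-429 at 147 and 92.4. miR-141 was at 45.4 against 176 CPM in the same pair, miR-200c at 636 against 928, and miR-135a-5p at 8.85 against 32.99. For month 3, group and G number cannot be told apart for the other libraries.

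The question whether the difference was also present outside month 3 was put to libraries of the same mice from other months. Results of month 4 were known when the members were chosen, so these tests are not independent of the choice. Counts of months 1, 2, 4, 5 and 6 were summed per mouse, which gave 7 CM and 7 Ctrl values. Every Ctrl mouse had 5 libraries in its sum, whereas CM mice had 3 to 5, as some months were missing. The months covered therefore differ between the groups. Both arms of miR-135a, miR-141 and miR-200c were lower in CM mice, and the 3 members of the miR-200b cluster did not pass the test. This made 4 of 7 members called lower, where 63 of all 748 miRNAs tested (8.42%) were lower and 15.1% higher. The members' median log2 change was -0.44, that of all miRNAs 0.03.

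miR-135a-1-3p ranged from 0.264 to 1.95 CPM (median 0.977) in CM mice and from 2.34 to 7.94 CPM (median 3.36) in Ctrl mice, that is 4 to 45 summed counts against 55 to 196. Every CM mouse lay below every Ctrl mouse, which held for 17 of the 748 miRNAs (2.27%). The log2 change was -2.09 ± 0.38 (SE), with an adjusted p of 0.00251 (edgeR quasi-likelihood test, Benjamini-Hochberg over all miRNAs tested, as throughout).

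miR-135a-5p ran from 1.85 to 17.1 CPM (median 8.46) in CM and from 10.9 to 81.2 CPM (median 28.5) in Ctrl. Here 4 of 7 CM mice, all of them female, lay below every Ctrl mouse, and the overlap was with a single Ctrl animal, mouse 3335, at 10.9 CPM, the level of CM mouse 3334. The log2 change was -2.22 ± 0.52 (edgeR adjusted p 0.00800). The difference was of similar size for both arms, 4.66-fold for the 5p arm and 4.25-fold for the 3p arm, and the ratio of their counts was 8.76 in CM and 8.48 in Ctrl as a median over mice.

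Of the miR-200c cluster, miR-141 ranged from 72.7 to 114.2 CPM (median 78.5) in CM and from 96.2 to 164 CPM (median 117.2) in Ctrl, and miR-200c from 356 to 592 CPM (median 440.3) against 484 to 743 CPM (median 567). Most CM mice (5 of 7 for each) lay below every Ctrl mouse. The log2 changes were -0.49 ± 0.14 (edgeR adjusted p 0.0200) for miR-141 and -0.44 ± 0.14 (edgeR adjusted p 0.0335) for miR-200c, or 1.40-fold and 1.35-fold. Neither call held without mice 3334 and 3335 (edgeR adjusted p 0.0569 and 0.0541) nor with sex as a covariate (0.0531 and 0.0810), although the estimates stayed between -0.44 and -0.38. Within sexes the log2 ratio of the means was -0.32 in females (4 CM, 2 Ctrl) and -0.59 in males (3 CM, 5 Ctrl) for miR-141, and -0.38 and -0.45 for miR-200c.

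The members of the miR-200b cluster overlapped. miR-200a ranged from 203 to 585 CPM (median 324) in CM mice and from 286 to 486 CPM (median 327) in Ctrl mice, with a log2 change of 0.06 ± 0.23 (edgeR adjusted p 0.896). miR-200b ranged from 254 to 565 CPM (median 356) against 273 to 675 CPM (median 490.4), a change of -0.24 ± 0.21 (edgeR adjusted p 0.464). miR-429 ranged from 61.99 to 179 CPM (median 109.2) against 70.3 to 138.2 CPM (median 96.04), a change of 0.22 ± 0.24 (edgeR adjusted p 0.577). Of the 3 members with the seed AAUACUG, miR-200c was called and miR-200b and miR-429 were not; the difference between them was not tested.

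**Figure D1:**
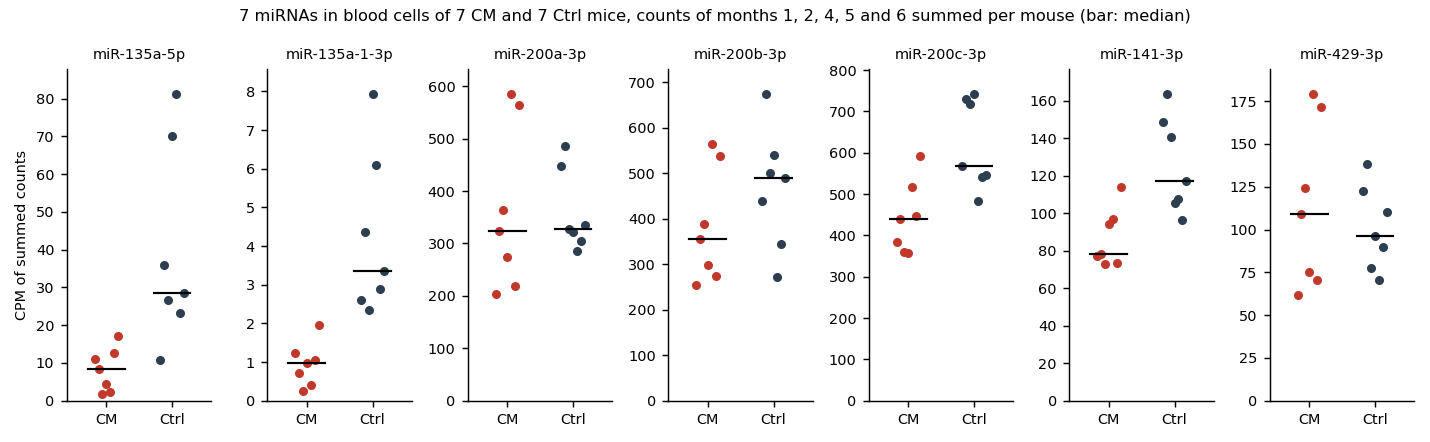
CPM of the 7 miRNAs (y axis, linear from 0) in 7 CM and 7 Ctrl mice, from counts of months 1, 2, 4, 5 and 6 summed per mouse; each point is 1 mouse and each bar the median of its group. For miR-135a-1-3p all CM mice, at 1.95 CPM or less, lie below all Ctrl mice, whereas the points of miR-200a, miR-200b and miR-429 overlap.

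A fit of single libraries outside month 3 (46 CM and 69 Ctrl), with the group difference averaged over months 1, 2, 4, 5 and 6 and a term for the G number, gave the same 4 members lower. The log2 changes were -2.10 ± 0.30 for miR-135a-1-3p (edgeR adjusted p 6.06e-08), -2.30 ± 0.51 for miR-135a-5p (0.000165), -0.55 ± 0.15 for miR-141 (0.00152) and -0.47 ± 0.14 for miR-200c (0.00478). Those of miR-200a, miR-200b and miR-429 were -0.04, -0.20 and 0.15 and were not called. Of all 509 miRNAs, 91 (17.9%) were lower and 24% higher. Libraries of 1 mouse count as independent in this fit; with the mouse as a random block in limma-voom the same 4 were called, with a correlation of 0.0248 between libraries of a mouse.

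In that fit the term for the G number was called for none of the members (F test, edgeR adjusted p 0.595 to 0.857) and for 11 of 509 miRNAs (2.16%), which does not show that it had no effect. Within single months the same covariate moved estimates and ended calls, as given for month 3 above and for months 1 and 2 below. At month 4 no G number held both groups, so the covariate could not be used there. Taken one G number at a time over months 1, 2, 4, 5 and 6, the CM mean was below the Ctrl mean in 7 of 7 G numbers for miR-135a-1-3p, with log2 differences from -1.77 to -0.65. It was below in 6 of 7 for miR-135a-5p (-3.11 to 0.88) and for miR-141 (-1.26 to 0.06), and in 5 of 7 for miR-200c (-1.33 to 0.15). The counts for miR-200a, miR-200b and miR-429 were 5, 4 and 3 of 7.

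Before induction, at month 0, no member was called in edgeR, and neither DESeq2 nor the deposited CPM called one. One of 478 miRNAs (0.209%) was called higher and 0 lower (0.0%), with 62 of them at an unadjusted p under 0.05. miR-200c was nevertheless lower by a similar amount as later. It ranged from 452 to 567 CPM (median 514) in the CM mice to be induced and from 477 to 886 CPM (median 635) in Ctrl mice, a log2 change of -0.43 ± 0.14 (edgeR adjusted p 0.261, unadjusted p 0.00793). miR-135a-5p was at 2.75 to 64.3 CPM (median 20.0) against 12.5 to 144 CPM (median 57.6), a change of -1.26 ± 0.69 (edgeR adjusted p 0.442). miR-135a-1-3p (-0.17 ± 0.50, without mice 3334 and 3335 -1.10) and miR-141 (-0.14 ± 0.16) were closer to 0 with all mice.

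At month 1 miR-135a-1-3p separated the groups completely. CM libraries had 0 to 10 counts, or 0 to 2.17 CPM (median 0.511), and Ctrl libraries 14 to 64 counts, or 3.07 to 10.6 CPM (median 3.64). The miRNA passed the filter on low counts through the Ctrl libraries, as 5 of 7 CM libraries had 3 counts or fewer. The log2 change was -2.71 ± 0.53 (edgeR adjusted p 0.00523), in a month in which 61 of 472 miRNAs (12.9%) were called lower and 9 (1.91%) lay lower in every CM library than in every Ctrl library. With the G number as a covariate it was -2.13 and missed the threshold (edgeR adjusted p 0.0661). miR-135a-5p ranged from 0.213 to 10.2 CPM (median 1.01) against 0.416 to 169 CPM (median 3.48), a change of -3.34 ± 1.204 that also missed it (edgeR adjusted p 0.0504). The 5 miR-200 members were not called, with log2 changes of -0.30 for miR-141, 0.10 for miR-200c, 0.31 for miR-200a, 0.36 for miR-200b and 0.68 for miR-429.

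From month 0 to month 1, miR-135a-1-3p fell more in CM than in Ctrl mice. In CM it went from 1.93 to 21.3 CPM (median 3.86) at month 0 to the values above, and in Ctrl from 3.57 to 14.6 CPM (median 5.28). The interaction of month and group was -2.40 ± 0.76 on the log2 scale (edgeR adjusted p 0.0490), in a test that called 13 of 520 miRNAs (2.5%) in this direction and 5.96% in the other. It missed the threshold without mice 3334 and 3335 (-2.08, edgeR adjusted p 0.0520), of which the former held 96 counts at month 0 where no other CM library exceeded 21. The interaction of miR-200c pointed the other way (0.64 ± 0.28, edgeR adjusted p 0.137), as it was lower in CM at month 0 and not at month 1.

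At month 2 miR-141 was lower in CM, at 73.3 to 106.2 CPM (median 92.7, n = 6) against 59.3 to 257 CPM (median 153, n = 7). All CM libraries lay above the lowest Ctrl library, so the groups overlapped, as they did for every member tested, whereas 3.53% of all miRNAs did not overlap with CM lower. The log2 change was -0.80 ± 0.25 (edgeR adjusted p 0.0473), where 28 of 481 miRNAs (5.82%) were called lower. The call was lost when most single mice were left out, Ctrl mouse 3339 (-0.65, edgeR adjusted p 0.0854) among them, and with the G number (0.144). miR-200c, at 320 to 492.9 CPM (median 408) against 247 to 1391 CPM (median 591), had a change of -0.89 ± 0.32 (edgeR adjusted p 0.0759). miR-135a-1-3p did not pass the filter, with 0 to 12 counts in CM and 6 to 25 in Ctrl.

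At month 4 miR-135a-1-3p was lower again. It stood at 1 to 5 counts in all 6 CM libraries (0.255 to 1.04 CPM, median 0.715) and at 3 to 49 counts in Ctrl (0.618 to 9.70 CPM, median 3.32), a difference that was known when the members were chosen. The log2 change was -2.52 ± 0.53 (edgeR adjusted p 0.0371), and it was the only miRNA of 478 called lower (0.209%), with 0.628% called higher. It passed the filter on low counts through the Ctrl libraries, and it did not pass a minimum of 10 counts. No G number held both groups in that month, so a fit with the G number could not give a change between groups. miR-135a-5p ranged from 0.255 to 15.2 CPM (median 2.00) in CM and from 1.03 to 230 CPM (median 48.7) in Ctrl, a change of -4.19 ± 1.00 (edgeR adjusted p 0.0562). miR-200c, with 219 to 499.7 CPM (median 381) against 307 to 1299 CPM (median 729.8), had a change of -0.99 ± 0.33 (edgeR adjusted p 0.140).

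At months 5 and 6 no member was called. Of 505 miRNAs at month 5 edgeR called 0 (0.0%), with 21.6% of them at an unadjusted p under 0.05 and 21 called by DESeq2, none of them a member. In 1.19% of the miRNAs, but in no member, every CM library lay below every Ctrl library. One CM mouse, 3370, stood apart at month 5. It had 1168 CPM of miR-200c where the other 4 CM mice had 345, 322, 299 and 269 CPM, and without it the log2 change of miR-200c turned from 0.04 to -0.57 (edgeR adjusted p 0.199). The 7 Ctrl libraries ranged from 292 to 629 CPM (median 496). miR-135a-1-3p stood at 7, 10, 7, 8 and 22 counts in the 5 CM mice and at 2 to 61 counts in Ctrl, a change of -1.41 ± 0.66 (edgeR adjusted p 0.243).

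At month 6, edgeR called 0 of 444 miRNAs (0.0%), with 31 at an unadjusted p under 0.05, and DESeq2 also called 0. miR-141 did not overlap between groups in that month, at 65.4, 73.9, 55.04, 55.1 and 77.95 CPM in CM and 90.97 to 153 CPM (median 96.6) in Ctrl. It was the single miRNA of 444 (0.225%) with this property, and its change of -0.75 ± 0.21 had an unadjusted p of 0.00292 and an edgeR adjusted p of 0.416. miR-200c was at 549.8, 432, 394, 467 and 518 CPM against 377 to 1295 CPM (median 764), a change of -0.80 ± 0.31 (edgeR adjusted p 0.499). miR-135a-1-3p did not pass the filter in that month, and the other 6 members were below 0, where 230 of all 444 miRNAs were.

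**Figure D2:**
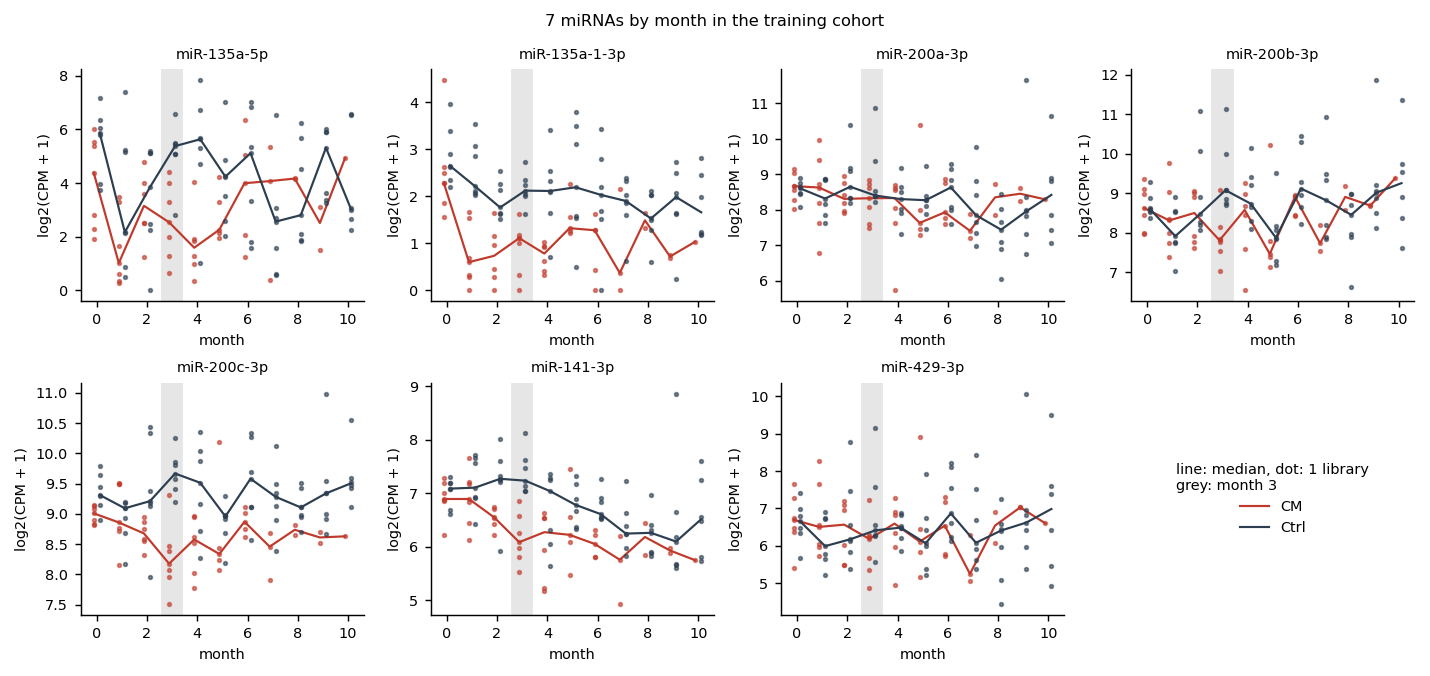
log2(CPM + 1) of each miRNA (y axis) by month (x axis); each point is 1 library, lines join the medians of CM and Ctrl, and the grey band marks month 3. The lines of miR-200c and miR-135a-1-3p stay apart in most months, those of miR-200a and miR-429 cross several times, and CM has 3 libraries or fewer in each month from month 7 on.

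**Figure D3:**
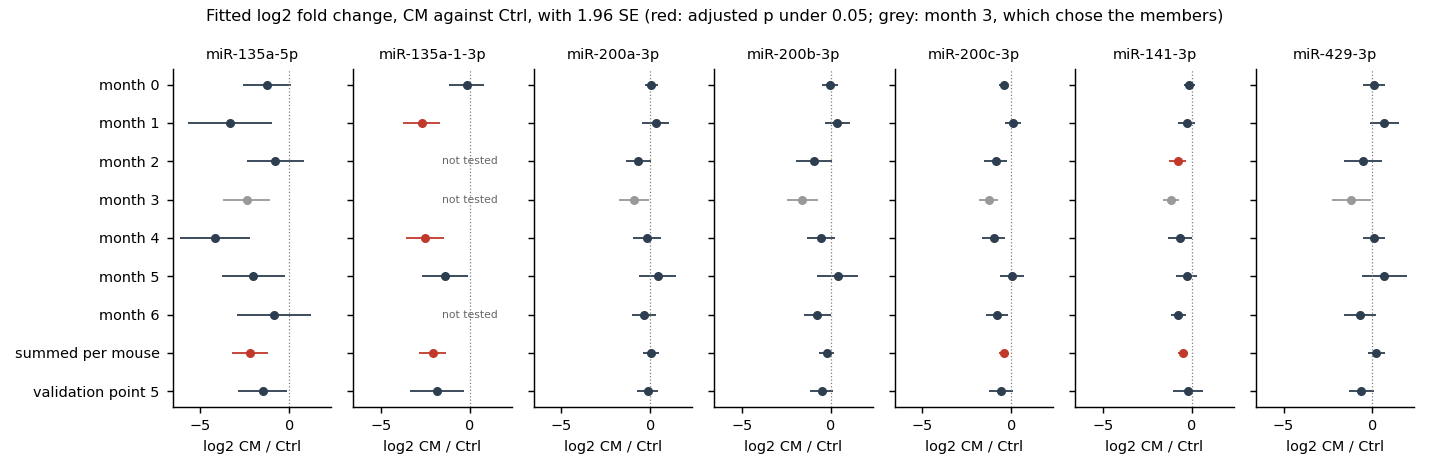
Fitted log2 change, CM against Ctrl (x axis), of each miRNA by month, in counts summed per mouse and at validation point 5 (y axis). Horizontal lines are approximate 95% intervals (normal approximation), red marks an adjusted p under 0.05, and grey marks month 3, which chose the members. Outside it, single months were called for miR-135a-1-3p (months 1 and 4) and miR-141 (month 2). At months 1 and 4 miR-135a-1-3p passed the filter on low counts through the Ctrl libraries.

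From month 7 on CM had only 3, 2, 2 and 1 libraries at months 7, 8, 9 and 10, and no test was made. miR-200c stood at 239.8, 351 and 408 CPM at month 7, 452 and 399 at month 8, 413 and 366 at month 9 and 395 at month 10. Ctrl medians in these months were 621, 550.1, 646 and 725 CPM. miR-135a-1-3p had 1, 0 and 11 counts, then 9 and 5, then 4 and 2, and 4 at month 10, whereas Ctrl libraries of these months ranged from 1 to 27 counts. Other members did not all stay lower in CM. By the counts, the CM median of miR-135a-5p was above that of Ctrl at months 7, 8 and 10. It stood at 15.8, 16.96 and 29.5 CPM against 4.89, 5.96 and 7.1. At month 9 it was lower, and by the deposited CPM it was lower in each of these months. CM medians were higher at months 8 and 9 for miR-200a and miR-429, and at months 8 and 10 for miR-200b. Those of miR-141 were lower in each month.

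The last library of each CM mouse was drawn at month 4 (mice 3338 and 3357), at month 6 (3341), at a time labelled T6p5 (3334) and at months 7 (3336), 9 (3370) and 10 (3368). Compared with the same mice at month 0, 81 of the 446 miRNAs tested (18.2%) were lower in 7 of 7 mice, 3 of the 6 tested members among them. miR-135a-1-3p, which was not among the 446, was lower in 7 of 7 mice as well. miR-141 went from 73.7 to 156 CPM (median 117.8) before induction to 29.4 to 61.9 CPM (median 52.7) in the last libraries, and the ranges did not overlap. Its log2 change was -1.24 ± 0.21 (edgeR adjusted p 0.000724). miR-200c went from 452 to 567 CPM (median 514) to 219 to 395 CPM (median 366), again without overlap, which held for 21 of the 446 (4.71%), a change of -0.58 ± 0.17 (edgeR adjusted p 0.0138). With the mouse as a replicate block, miR-200c missed the threshold (-0.59, adjusted p 0.0595) and miR-135a-5p passed it (-2.87, adjusted p 0.00776), against -2.18 ± 0.96 and an edgeR adjusted p of 0.0847 without the block.

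miR-135a-5p fell from 2.75 to 64.3 CPM (median 20.0) to 0.255 to 29.5 CPM (median 1.39), with the high last value in mouse 3368. Without that mouse its change was -3.64 (edgeR adjusted p 0.00337). miR-135a-1-3p went from 10 to 96 counts to 0 to 4 counts and did not pass the filter, so no change was fitted. miR-200a was lower in 4 of 7 mice, miR-200b in 5 and miR-429 in 3, and none was called. Of 446 miRNAs, 71 (15.9%) were called lower at the end and 23.1% higher. The lymphocyte miRNAs miR-150-5p and miR-342-3p were called lower too, and the part of the cell mix in the change of miR-141 was not tested.

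In Ctrl mice, month 6 against month 0 called none of the 7 members, where 46 of 474 miRNAs (9.7%) were lower. The log2 changes were -0.25 ± 0.17 for miR-141, 0.30 ± 0.28 for miR-200c, -0.32 ± 0.80 for miR-135a-5p and -0.81 ± 0.55 for miR-135a-1-3p. miR-200b rose by 0.81 ± 0.34 without passing the test (edgeR adjusted p 0.0966). The lymphocyte pair fell in Ctrl mice too, with 1 of 2 called lower. Its median log2 change was -0.78, against -0.92 in the last CM libraries. Time after induction differed between the last CM libraries and month 6, so these changes stand side by side only.

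**Figure D4:**
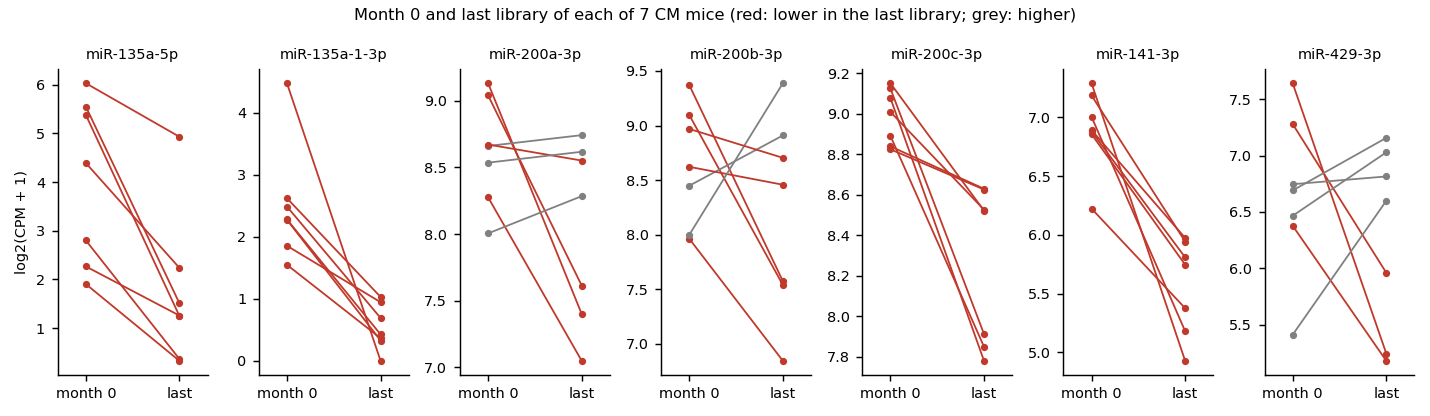
log2(CPM + 1) of each miRNA (y axis) in the month 0 library and the last library of each of 7 CM mice (x axis), joined by a line per mouse, red where lower in the last library and grey where higher. All 7 lines fall for both miR-135a arms, miR-200c and miR-141, and 4, 5 and 3 of 7 fall for miR-200a, miR-200b and miR-429.

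The authors deposited a second counting of the same libraries as CPM, and it changed miR-135a-5p more than any other member. Over all training libraries (53 CM, 76 Ctrl), the countings correlated with a Pearson's r of 0.68 for miR-135a-5p and 0.93 to 0.996 for the other 6 on the log2(CPM + 1) scale, as a description of the same reads counted by different routes. In 52 libraries (20 of 53 CM, 32 of 76 Ctrl) the deposited CPM of miR-135a-5p exceeded 5 times the CPM of the counts by more than 1 CPM, and this happened in 0 libraries for the other members. The median of Ctrl mice at month 1 was 3.48 CPM by the counts and 36.3 by the deposited CPM, and that of CM mice at month 4 was 2.00 and 13.6 CPM.

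In the sums over months 1, 2, 4, 5 and 6, the lower level of miR-135a-5p in CM held in both countings. At months 7, 8 and 10, with 3, 2 and 1 CM libraries, its CM median was higher than that of Ctrl by the counts and lower by the deposited CPM. At month 7 the medians were 15.8 against 4.89 CPM by the counts and 17.8 against 38.4 by the deposited CPM. On whole reads recovered from the deposited CPM, the summed change of miR-135a-5p was -2.02 (edgeR adjusted p 0.00590), and the single months 1, 2 and 4 were called (-3.06, -1.74 and -2.61, edgeR adjusted p 0.00176, 0.00892 and 0.0425), where the counts called none of the 3. The same reads also called miR-200b lower in the summed comparison (-0.62, edgeR adjusted p 0.0462), whose mean level was 499 CPM by the counts and 297 by the deposited CPM. Why the countings differ was not tested.

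**Figure D5:**
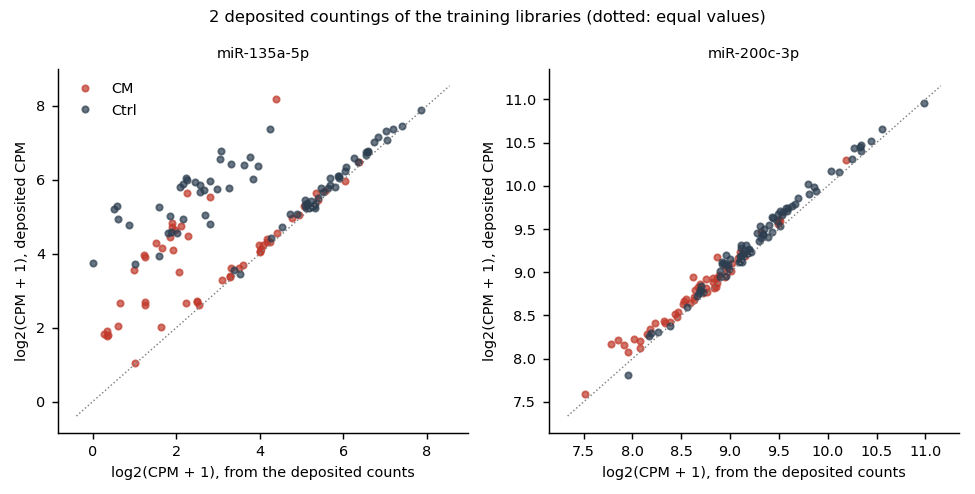
Deposited CPM (y axis) against CPM of the deposited counts (x axis), both as log2(CPM + 1), for miR-135a-5p and miR-200c in 53 CM and 76 Ctrl libraries; each point is 1 library and the dotted line marks equal values. The points of miR-135a-5p fall on the line or on a branch above it (52 libraries more than 5 times higher), those of miR-200c stay near the line.

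Levels of the miR-200b cluster rose and fell together from library to library. Spearman's rho over the 53 CM and 76 Ctrl libraries was 0.85 between miR-200b and miR-429, 0.83 between miR-200a and miR-429 and 0.71 between miR-200a and miR-200b, and 0.91, 0.91 and 0.87 after each group and month was centred. The value between miR-200c and miR-141, of the other cluster, was 0.57, below those of pairs across the clusters with nearly the same sequence, miR-200b with miR-200c (0.70, centred 0.75) and miR-200a with miR-141 (0.64, centred 0.59). The arms of miR-135a stood at 0.61. Libraries share depth, scaling and mouse, so these are descriptions. In CM mice the ratio of miR-141 to miR-200a, which differ at 2 bases, had a median of 0.242 (0.165 to 0.380) in summed counts, against 0.337 (0.315 to 0.429) in Ctrl.

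The miRNAs most like each member, among 325 with a mean of at least 10 CPM, differed between the clusters. miR-429, miR-200a and miR-200b were closest to the epithelial miR-205-5p (rho 0.86, 0.65 and 0.75) and to miR-184-3p (0.80, 0.76 and 0.66), the remaining place going to miR-183-5p for miR-429 and miR-200a (0.70 and 0.62) and to miR-34c-5p for miR-200b (0.53). miR-141 was closest to miR-500-3p (0.74), miR-3964 (0.71) and the lymphocyte miRNA miR-150-5p (0.70). miR-200c was closest to miR-374b-5p (0.64), miR-34c-5p (0.62) and miR-872-3p (0.56), and miR-135a-5p only loosely to miR-652-3p (0.44), miR-147-3p (0.44) and miR-374b-5p (0.43).

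The opposite arms and relatives of the members were scarce. Of 8 (the 5p arms of the miR-200 family, miR-135a-2-3p and both arms of miR-135b), 4 could be tested in the summed counts and none was called in either direction, with a median log2 change of 0.20. miR-135b-5p, which shares much of its sequence with miR-135a-5p, stood at 1.00 ± 0.46 (edgeR adjusted p 0.128), away from the direction of miR-135a-5p, and miR-141-5p at -0.56 ± 0.25 (edgeR adjusted p 0.116).

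Other epithelial miRNAs went mostly the other way. Of 12, 7 were higher and 0 lower in the summed counts, where 15.1% of all miRNAs were higher and 8.42% lower. Their median log2 change was 0.76 (0.03 for all miRNAs). The highest were miR-31-5p (2.51 ± 0.48, edgeR adjusted p 0.00354) and miR-215-5p (1.23 ± 0.22, 0.00216), and the cluster of miR-183-5p, miR-182-5p and miR-96-5p was higher as well (0.88, 0.99 and 0.84). In the fit of all libraries 8 were higher and 1, miR-34c-5p, lower (-0.63, edgeR adjusted p 0.0105). Their summed level was 2324 to 7567 CPM in CM mice and 2059 to 3144 CPM in Ctrl mice. Part of this was present before induction. At month 0 their median log2 change was 0.37, with 3 of 12 below 0 and 0 called. The medians of their summed level were 3206 CPM in CM and 2252 CPM in Ctrl in that month.

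Markers of other cells moved with the groups too, and their part in the members' differences was not tested. The lymphocyte pair summed to 26158 to 51199.8 CPM in CM and 37897 to 66663 CPM in Ctrl, with 0 of 2 called, and at month 3 miR-150-5p was lower by 0.70 (1 of 2 called). Of the general blood pair, miR-142a-3p was lower (-0.56) and miR-142a-5p was not (53318 to 75920 CPM against 68787 to 81469 CPM in sum). Erythroid markers were higher for 2 of 3 and muscle markers for 2 of 3, whereas 0 of 2 myeloid, 0 of 3 tested brain markers and the liver marker miR-122-5p were called. The defining markers miR-124-3p and miR-206-3p were at 0 in 71 and 40 libraries.

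The validation mice are other animals than those that chose the members, and only point 5 was deep enough, with 6 CM and 6 Ctrl libraries of 1645456 to 5445215 recovered reads. Its deposited CPM add up to different totals in different libraries and are compared only within this point. miR-135a-5p ranged from 11.01 to 475 CPM (median 233, 3 to 159 reads) in CM and from 151 to 725 CPM (median 389, 64 to 282 reads) in Ctrl. miR-135a-1-3p had 0 to 15 reads in CM (median 10.6 CPM) and 4 to 12 reads in Ctrl (median 25.9 CPM). miR-200c ranged from 2125 to 8955 CPM (median 4623) against 5701 to 11257 CPM (median 6219), and its groups overlapped like those of all other members.

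No member passed the test at point 5 (limma on log2(CPM + 1)), nor did any of 930 miRNAs (0.0%), with 54 at an unadjusted p under 0.05. edgeR on recovered reads also called 0. On the log2(CPM + 1) scale the changes were -1.87 ± 0.77 for miR-135a-1-3p (limma adjusted p 0.816), -1.49 ± 0.70 for miR-135a-5p (0.855), -0.64 ± 0.36 for miR-429, -0.58 ± 0.34 for miR-200c, -0.51 ± 0.33 for miR-200b, -0.20 ± 0.43 for miR-141 and -0.15 ± 0.29 for miR-200a. All 7 were below 0, where 496 of all 930 were. The other 90 validation libraries held 1744 to 76906 reads, and members were above 0 in at most 6 of them, with 52 reads of miR-200c as the highest, so a difference was not detectable at that depth.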

How the data were processed

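The members, the lists of relatives, epithelial miRNAs and cell markers, and the tests were chosen with earlier results of these data known. RNA of PBMC was made into small RNA libraries by the authors. Per the methods of the study, reads were trimmed with cutadapt and aligned with Bowtie to mm9, whereas the submitters' processing notes name GRCm38 and SAMtools as well, so the build is unsettled and coordinates come from RefSeq (GRCm38.p6). The deposited raw counts are whole numbers for 1863 miRNAs in the 53 CM and 76 Ctrl training libraries, made by the authors at settings not given in the sources used here. The deposited signal for 1895 training and 1817 validation miRNAs is the authors' CPM after TMM scaling in edgeR. All its values came out as whole reads (100% within 0.01 of a whole number).

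Groups, mice, sex and month came from the labels, and all 231 libraries were assigned. A chi-square comparison of 344 pairs of libraries of the same group and time found none within sampling noise of each other. Counts were tested with edgeR 4.0.16 (R 4.3.3; TMM, filterByExpr, quasi-likelihood F test), validation values with limma 3.58.1 on a log2(CPM + 1) scale after dropping miRNAs that did not reach 1 CPM in 6 libraries, both with Benjamini-Hochberg adjustment over all miRNAs tested and a threshold of 0.05. DESeq2 1.42.0 and the other alternatives are given at the end; edgeR on recovered reads was added after the data were seen. The fits were tested on simulated counts. Named beside the members were the 3 miRNAs with the highest Spearman correlation to each (mean of 10 CPM or more). CM libraries at month 0 and at the end come from the same mice, and this is what the block pairs; deviations of a mouse's libraries from their group means correlated at -0.17 to 0.12 in CM and -0.21 to 0.14 in Ctrl. In single months, in the sums per mouse and in the validation test each mouse gives 1 value, so those p-values measure the spread between mice. The fit of all libraries takes libraries of 1 mouse as independent. So do the interaction and the last-library comparison where no block was used.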

Additional observations from a re-analysis of the deposited data

Results flagged for a closer look

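In 24 groups of 5 to 7 libraries, 21.4% of those examined, 1 library stood apart from the rest by Dixon's criterion on the CPM scale. Chance does this in about 1 in 20 groups of independent, normally distributed values. The members share libraries and the CPM were not put on a log scale, so no excess is read from this share. Members of the miR-200b cluster did so together. In Ctrl mouse 3339 at month 2, miR-200a stood at 1330.0 CPM (others 292 to 575), miR-200b at 2166 CPM (267 to 1073) and miR-429 at 437 CPM (40.4 to 174). In Ctrl mouse 3342 at month 3 they stood at 1868 CPM (295 to 663), 2266 CPM (415 to 1024) and 563 CPM (45.8 to 191). In Ctrl mouse 3335 at month 5 they stood at 602 CPM (173 to 334), 732 CPM (143 to 285) and 241 CPM (36.3 to 105.1). miR-200c of these libraries did not stand apart.

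In CM mouse 3370 at month 5, miR-200c rose with the cluster. There miR-200a was at 1333 CPM (others 154 to 254), miR-200b at 1199.7 CPM (140.0 to 222), miR-200c at 1168 CPM (269 to 345), miR-429 at 478 CPM (34.8 to 86.1) and miR-135a-1-3p at 3.78 CPM (1.33 to 1.95). In CM mouse 3334 at month 3, miR-200b was at 542 CPM (130 to 282), miR-200c at 636 CPM (181 to 354) and miR-429 at 147 CPM (28.2 to 77.2).

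The miR-135a arms stood apart one at a time. miR-135a-1-3p was at 21.3 CPM in CM mouse 3334 at month 0 (others 1.93 to 5.17). miR-135a-5p was at 169 CPM in Ctrl mouse 3346 at month 1 (0.416 to 36.4), at 130.7 CPM in the same mouse at month 5 (3.06 to 28.4) and at 15.2 CPM in CM mouse 3368 at month 4 (0.255 to 2.72).

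At validation point 5, CM mouse 2700 had 44.8 CPM of miR-135a-1-3p (15 reads, others 0 to 12.2 CPM), and Ctrl mouse 2705 had 3572 CPM of miR-200b (1500.1 to 2097) and 11257 CPM of miR-200c (5701 to 7028). The change of miR-135a-1-3p from month 0 to month 1 differed between CM and Ctrl mice by -2.40 on the log2 scale (edgeR interaction, adjusted p 0.0490).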

How the results depend on the processing

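The tally of alternative estimates covers all members in the summed, all-library, last-library, interaction and validation comparisons, and by month only both miR-135a arms, miR-200c and miR-141. Of these, 842 kept direction and side of the threshold, 37 lost a call, 25 gained one and 20 changed sign. The cause was not tested in any of them. With all libraries, 4 members were called under every alternative, and validation point 5 gave 0 throughout. Summed per mouse, 4 became 2 without mice 3334 and 3335 and 2 with sex. miR-200c alone lost its call when single mice were left out, CM 3336 (adjusted p 0.0554), CM 3341 (0.0602) or Ctrl 3340 (0.0670). An exact permutation test over mice called the 4 as well (adjusted p 0.00890 for miR-135a-1-3p and miR-200c, 0.0218 for miR-135a-5p and miR-141).

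Month 1 (1 member called) gave 2 with DESeq2, raw library sizes, no filter or the deposited CPM, 0 with the G number and 1 to 2 without 1 mouse. Month 2 (1) gave 2 with DESeq2, 3 on recovered reads, 0 without mice 3334 and 3335, with sex or with the G number, and 0 to 2 without 1 mouse. With no filter the member called at month 2 was miR-135a-1-3p (adjusted p 0.0483), and miR-141 was lost (0.135). Month 3 (4), from whose calls nothing is read because it chose the members, gave 0 with the G number and 5 with no filter, a minimum of 10 counts or the deposited CPM. Month 4 (1) gave 2 with DESeq2 or no filter and 0 to 2 without 1 mouse. It gave 0 without mice 3334 and 3335, with sex, with a minimum of 10 counts or with the deposited CPM. Of its 13 fits without a mouse, 7 tested miR-135a-1-3p. Its fits with the G number stay in the tally, although no G number of that month held both groups. The end of CM against month 0 (2) gave 1 to 3, with 1 without CM 3336 or 3338, where miR-200c was lost. The interaction (1) gave 0 without mice 3334 and 3335. In it the replicate block left miR-135a-1-3p called (-2.42, adjusted p 0.0421) while all calls went from 44 to 21, and it changed no call beyond those given for the last libraries.

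The sign changed for miR-135a-1-3p at month 0 without Ctrl 3349 (range without 1 mouse -0.99 to 0.10). miR-200c changed sign at month 1 with raw sizes (-0.032), the G number (-0.14) or without CM 3368 (range -0.012 to 0.20), and at month 5 with the G number (-0.21), the deposited CPM (-0.19) or without Ctrl 3342, Ctrl 3350 or CM 3370 (range -0.57 to 0.18). miR-135a-5p did so with the G number at month 2 (0.31) and month 6 (2.51 ± 1.98). At month 6 only 1 of 7 G numbers held both groups, so that estimate rests on few libraries. miR-200a did so summed per mouse with raw sizes (-0.017), mouse means (-0.19) or without CM 3357 or CM 3370 (range -0.12 to 0.17), and over all libraries without mice 3334 and 3335 (0.12). miR-429 at the end changed sign without CM 3336 (range -0.47 to 0.080), and miR-141 in validation without Ctrl 2683, CM 2686 or CM 2718 (range -0.48 to 0.10). Outside the tally, the G number turned miR-200a, miR-200b and miR-429 at month 3 (0.50, 0.21 and 0.89) and at month 1 (-0.20, -0.25 and -0.11), and at least 1 of them changed sign under some setting at months 0, 4 and 5. Low counts kept miR-135a-1-3p out of the tests of months 2, 3 and 6.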
